A study of Rattus norvegicus with 8 samples.

Results

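Gene expression was compared between the uninjured medial collateral ligaments of hindlimb-unloaded rats and those of weight-bearing rats. The comparison was defined by the array titles: the 2 arrays titled unloaded control were set against the 2 titled loaded control, out of 8 arrays in the series, and all 8740 probe sets that are not array controls were considered. Loaded control rats bore weight and had a sham operation. Unloaded control rats had no operation and were suspended by the tail after the NASA Ames method, so that the hind legs carried no weight. The other 4 arrays were used to set the signal level of each probe set and as a second unloading comparison: loaded healing rats had the ligament disrupted on both sides, and unloaded healing rats had the same injury and were suspended from 24 hours after it. All ligaments were taken at 3 weeks. Because 1 control group had sham surgery and the other had none, unloading and sham surgery cannot be told apart. The labels do not state strain, age or sex, nor whether the 2 arrays of a group are separate animals, pools or repeats of 1 RNA, so every p-value measures the spread between these arrays, which may be technical.

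The medial collateral ligament is a band of parallel collagen fibres laid down by fibroblasts, and it stabilises the inner side of the knee. Type I collagen makes up most of its dry matter, with type III collagen, small leucine-rich proteoglycans such as decorin and fibromodulin, and glycoproteins such as Comp and thrombospondin 4 organising the fibrils. Ligament fibroblasts sense tension through their matrix contacts and cytoskeleton, and prolonged removal of load is known to weaken the tissue and to alter its matrix.

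Each value is the signal intensity of a probe set, a group of short oligonucleotides for 1 transcript. An offset of 45.8 was added before taking log2. Differences are unloaded minus loaded control on that log2 scale with the standard error (SE) of the fit and n = 2 arrays per group, and folds are on the same offset scale. The linear model (limma, all 4 groups in 1 fit) tested the 5244 probe sets that passed a filter on low mean signal, and a probe set was called lower or higher at a Benjamini-Hochberg adjusted p under 0.05. A probe set was called kept when the 95% confidence interval of its difference lay within 1 log2 unit of 0 on either side. A wide interval cannot meet that condition, so a probe set that was neither called nor kept has an unresolved difference. The ligament was measured in bulk, so fewer cells of a type and less RNA per cell cannot be told apart.

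Both unloaded control arrays differed from the other 6 in the shape of their signal, and every result below rests on them. Across probe sets their log2 signal correlated at 0.834 with each other and at 0.492 to 0.608 with the other arrays, which correlated at 0.761 to 0.872 among themselves, as a description over probe sets that are not independent. All arrays had been scaled to a common trimmed mean of 500.3 to 500.6, so each difference is relative to the rest of the array. Median signals of 313.6 and 315.9 were found for the unloaded controls against 238.7 to 286.2 elsewhere, and the 99th percentile was 5494 and 5584 against 9218 to 11290. The 100 probe sets that were brightest on the healing arrays carried 21.7% of the summed signal in each unloaded control and 47.2% to 51.8% on the other 6. The unloaded controls therefore had a narrower range of signal, with lower tops and a higher middle.

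Many of the transcripts that a ligament fibroblast makes in bulk were lower in unloaded controls, and few transcripts were higher. Of the 5244 probe sets, 326 (6.22%) were called lower, 31 (0.591%) were called higher, 695 (13.3%) were kept and 4192 were neither. The median difference over all probe sets was 0.23, so the typical probe set read slightly higher on the unloaded arrays. Probe sets called lower had a median signal of 2929 on the loaded and 411 on the unloaded controls and a median difference of -2.70. The falls were deep: 242 passed 4-fold, 140 passed 8-fold, 67 passed 16-fold and 8 passed 64-fold. Both unloaded arrays lay below both loaded arrays for all 326, which a call made on these same arrays favours, so it adds no support. Of the 326, 118 had dropped below the array median on both unloaded controls, 42 still read above 4 times it on both, and 5 read at or below the offset on both. With 1 probe set per gene, 157 of 3228 genes (4.86%) were lower, 10 higher and 482 (14.9%) kept. The counts of every gene list below are to be read against these shares. The split of calls depended on the scaling: with quantile normalization it was 386 lower and 207 higher, so that 34.9% of the calls were higher against 8.68% in the main fit. With median centring it was 360 lower and 7 higher. The count of kept probe sets fell to between 327 and 367 when 1 of the 4 control arrays was left out, since intervals were then wider. It was 342 with spike-in scaling, 1146 without a filter and 1388 with an offset 4 times as large.

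The falls were concentrated among the brightest probe sets. Signal level was taken from the 4 healing arrays, which do not enter the difference, and the probe sets were cut into 10 bins of 524 or 525. The healing arrays correlated at 0.769 to 0.872 with the loaded and at 0.492 to 0.575 with the unloaded controls. This level therefore lies nearer to that of the loaded controls, which favours falls among bright probe sets. In bins 1 to 4, the dimmest, 8 probe sets were lower in all (2, 0, 3 and 3) and the median difference lay between 0.32 and 0.42. In bins 5, 6 and 7 the lower probe sets numbered 6, 7 and 13, in bin 8 there were 30 and in bin 9 there were 48. Bin 10 alone held 214 of 525, or 40.8% of its probe sets and 65.6% of all that were lower, and its median difference was -0.41. With level taken from all 8 arrays, that median was -0.12. Calls of higher showed no such rise with level, with between 1 and 6 probe sets in every bin. Kept probe sets numbered 0 in bins 1 to 3, where intervals are wide, and 2, 9, 41, 66, 133 and 234 in bins 4 to 9.

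**Figure D1:**
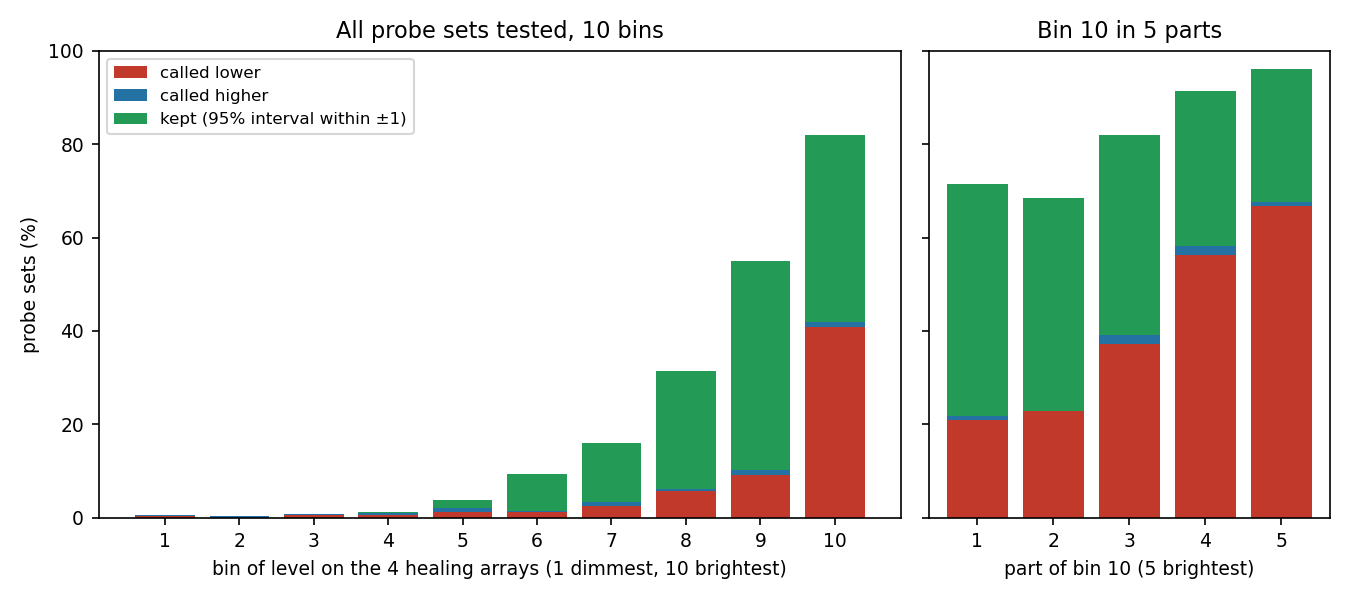
Percentage of probe sets called lower (red), called higher (blue) or kept (green) by signal level on the healing arrays, for all 10 bins (left) and for the brightest bin in 5 parts (right). The red share stays under 10% up to bin 9 and is 40.8% in bin 10, where it goes from 21.0% in its dimmest part to 66.7% in its brightest.

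High signal alone did not mark the probe sets that fell, because nearly as many bright probe sets were kept. Bin 10 held 210 kept probe sets beside its 214 lower ones, with 6 higher and 95 neither. Its differences were spread widely, from a lower quartile of -2.68 to an upper quartile of 0.14. Cut into 5 parts by level, a description made after the data were seen, bin 10 had 22, 24, 39, 59 and 70 lower probe sets and 52, 48, 45, 35 and 30 kept ones among 105 each. The median difference was near 0 in the dimmest part, -1.58 in the fourth and -3.27 in the brightest. Of the 100 brightest probe sets, 69 were lower, 27 kept, 1 higher and 3 neither. Across probe sets, the Pearson correlation of level with difference was -0.49 over all 5244, -0.21 over bins 1 to 9 and -0.50 within bin 10, with Spearman values of -0.28, -0.17 and -0.41. These are descriptions over probe sets that share the same arrays.

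Kept and lower probe sets reached the same top levels. The brightest of all were mostly probe sets for which the probe table gives no gene symbol. J01435cds#8_s_at read 136158 and 141586 on the loaded and 883 and 889 on the unloaded controls, the deepest fall measured (-7.22 ± 0.14, adjusted p = 1.9e-09, 149.1-fold). J01435cds#4_s_at read 232154 and 260478 against 2194 and 1750 (-6.94 ± 0.16). In contrast, U11071_f_at read 166040 and 151031 on the loaded and 184956 and 218391 on the unloaded controls, and M13100cds#1_at read 163520 and 166042 against 121944 and 125191. The first pair fell by more than 64-fold, and the other pair stayed at the top of the arrays.

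The kind of probe set differed between the lower and the kept bright ones. An array suffix marks how specific the probes are: _f_at stands for a set that recognises a family of sequences, _s_at for one shared by several transcripts, _i_at and _r_at for sets that met fewer of the design rules. In bin 10, probe sets with none of these marks and no _g mark were lower in 97 and kept in 108 of 253. Those with the _g mark, _g_at sets, were lower in 39 and kept in 31 of 87. The _s_at sets were lower in 67 and kept in 30 of 118, whereas _f_at sets were lower in 6 and kept in 21 of 37, and _i_at sets were lower in 5 and kept in 16 of 25. Probe sets that carry several gene symbols were lower in 65 of 233 at all levels (27.9%), and in bin 10 in 52 of 75. Probe sets with 1 symbol were lower in 122 and kept in 151 of 344 in bin 10, and those with none in 40 and 44 of 106. These are counts over the chosen bins, with no test.

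**Figure D2:**
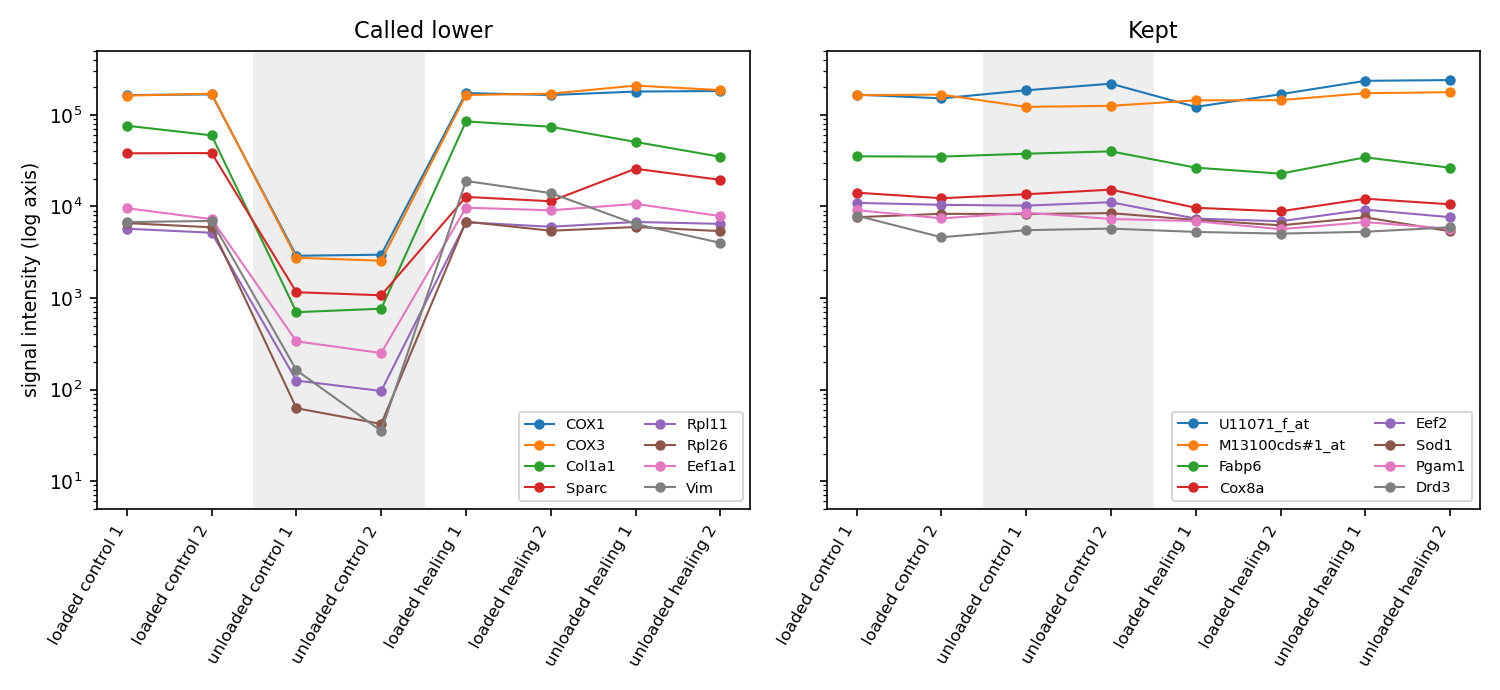
Signal (log axis) on each of the 8 arrays for 8 bright probe sets called lower (left) and 8 kept (right), picked as examples with their values known (other probe sets of Eef2 and Cox8a were lower); the grey band marks the unloaded control arrays and lines join the values of 1 probe set. COX1 drops from 164214 and 166801 to 2887 and 2966 inside the band, while Fabp6 reads 35180 and 34924 outside it and 37570 and 39856 inside.

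The transcripts of the ligament's own matrix were among the deepest falls. Col1a1, which encodes the main chain of type I collagen, read 75949 and 59573 on the loaded and 699 and 763 on the unloaded controls. It fell 86.7-fold (-6.44 ± 0.20, adjusted p = 1.19e-08), the largest fall among genes with 1 symbol. The 3 other probe sets of Col1a1 also fell, with differences of -3.19, -2.75 and -1.38, so the direction was shared and the size was not. Col1a2, the partner chain, read 13164 and 10799 against 840 and 816 (-3.78 ± 0.19, adjusted p = 3.43e-07). Col3a1, the type III collagen of thin fibrils, read 3172 and 3208 against 127 and 104 (-4.33 ± 0.23, adjusted p = 4.78e-07). A second probe set of Col3a1 was not called (-1.07, adjusted p = 0.109). Col5a1, which nucleates collagen fibrils, went from 1821 and 1751 to 905 and 561 (-1.27 ± 0.31, adjusted p = 0.0375). Of 10 collagens measured, 4 were lower (40%, against 4.86% of all genes), 0 higher and 1 kept. Their median was -0.83 against 0.23 over all probe sets. The kept member was Col15a1, a basement membrane collagen, at 0.07. Col12a1, a fibril-associated collagen, was neither called nor kept (0.46 ± 0.44, adjusted p = 0.637). The summed signal of the list was 97740 and 78910 on the loaded and 7062 and 6328 on the unloaded controls, and Col1a1 made up most of the difference.

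Enzymes that process and crosslink collagen mostly did not pass. Lox, the lysyl oxidase that starts collagen crosslinks, read 1645 and 1961 on the loaded and 220 and 206 on the unloaded controls (-2.83 ± 0.31, adjusted p = 0.000127). Other probe sets of Lox were not called (-0.58 and -0.17). Lox was the only 1 of 10 called on its list, whose median was -0.68. Plod3, a lysyl hydroxylase, was kept at 0.36 ± 0.27. P4hb, a subunit of prolyl hydroxylase, read 1764 and 703 against 403.7 and 684 (-1.02 ± 0.43, adjusted p = 0.254). Pcolce, which enhances procollagen cleavage, read 893 and 1236 against 614 and 236 (-1.35 ± 0.46, adjusted p = 0.148). The groups did not overlap for either, although for P4hb the nearest arrays read 703 and 684. With so few arrays per group a lack of overlap is no evidence of a fall. Both differences stay unresolved.

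Proteoglycans and matrix glycoproteins followed the same split. Of 30 measured, 10 were lower (33.3%, against 4.86% of all genes), 0 higher and 3 kept, with a median of -0.39. Sparc, a collagen-binding glycoprotein, read 37960 and 38170 on the loaded and 1154 and 1069 on the unloaded controls (-5.04 ± 0.17, adjusted p = 1.84e-08), and its 2 other probe sets fell too, at -3.74 and -2.41. The proteoglycan decorin, Dcn, which binds collagen fibrils, went from 5285 and 3470 to 271 and 153 (-4.11 ± 0.32, adjusted p = 8.32e-06). Fmod, fibromodulin, another regulator of fibril diameter, went from 2878 and 2624 to 294 and 131 (-3.51 ± 0.36). A second, dimmer probe set of Fmod was not called (0.21), so that gene's probe sets disagreed. On the probe sets with these signals, Dcn and Fmod ended below the array median on both unloaded arrays and Sparc above it. Thbs4, a thrombospondin of tendon and ligament, read 1544 and 1504 against 75.7 and 41.3 (-3.93 ± 0.35, adjusted p = 2.76e-05). Bgn (biglycan), Mgp (an inhibitor of calcification), Comp, Postn (periostin), Fn1 (fibronectin) and Lum (lumican) fell as well, with differences from -3.13 to -1.60. Mgp shows the spread, with 135 and 1010 on the 2 unloaded arrays against 3529 and 2646. Kept members were basement membrane and cell surface genes: Lamc1 at 0.16 and Lamb2 at 0.28 encode laminin chains, and Sdc4, a syndecan, stood at 0.41. A second, dimmer probe set of Lamb2 was lower (606 and 547 against 113 and 147), so that gene's probe sets disagreed.

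The listed markers of tendon and ligament fibroblasts were present in loaded controls and were mostly lower in unloaded controls. Of 12 measured, 9 were lower and 2 kept, with a median of -3.22, and their summed signal was 115200 and 95180 on the loaded and 9989 and 8181 on the unloaded controls. Col1a1, Col1a2, Dcn, Fmod, Thbs4, Comp, Bgn and Lum are shared with the matrix lists above. Thy1, a surface protein of fibroblasts, fell as well, from 1717 and 1791 to 179 and 99.3 (-3.32 ± 0.31, adjusted p = 4.24e-05). Pdgfra, the receptor for platelet-derived growth factor on fibroblasts, was kept at 0.14 ± 0.32. Egr1, a load-responsive transcription factor of tendon, read 1750 and 2192 against 1708 and 1431 and was kept at -0.32 ± 0.23. Tnc, a matrix glycoprotein in the brightest bin, went the other way and was neither called nor kept (0.62). The tendon genes Scx, Mkx and Tnmd were not among the probe sets tested.

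Cytosolic ribosomal proteins, the protein parts of the ribosome, were the class with the most lower members. Of 36 genes measured, 31 were lower, 0 higher and 4 kept, with a median of -3.20. The following values are those of each gene's deepest probe set with 1 symbol, whereas the list counts use the brightest one, on which Rpl26, Rpl3 and Rpsa fell less (-4.59, -4.21 and -3.03). Rpl26 read 6564 and 5902 on the loaded and 62.5 and 42.1 on the unloaded controls (-6.01 ± 0.23, adjusted p = 4.17e-08, 64.3-fold). Rpl3, which helps to form the peptidyl transferase centre, read 3492 and 3305 against 48.8 and 44.9 (-5.22 ± 0.24). Rpsa, which is also known as a laminin receptor, read 6722 and 6306 against 187 and 93.6 (-5.19 ± 0.25). Rpl11 read 5701 and 5150 against 125 and 96.4 (-5.13 ± 0.21, adjusted p = 6.37e-08). The summed signal of the list was 315900 and 298700 on the loaded and 47670 and 49460 on the unloaded controls. Of the 31 members in the brightest bin, 29 were lower and 2 kept. The kept ones were Rps15, Rpl35a, Rpl17 and Rps24. Rps15 was kept on its brightest probe set, an _r_at set (21381 and 16836 against 16059 and 14625), while another Rps15 probe set fell from 5807 and 5894 to 353 and 789 (-3.35 ± 0.30, adjusted p = 3.02e-05). Rpl35a, at 1974 and 1882 against 1386 and 1916, Rpl17 at -0.23 and Rps24 at 0.07 read lower than most of the list in loaded controls. A further bright probe set, for the ribosomal protein L19-like gene Rpl19l4, was kept at 48305 and 43584 against 44952 and 46615.

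Ribosomal protein messages are known for a run of pyrimidines at their start, through which their translation is regulated together, so the start sites of this class are shown with every copy of the motif CTTTC in capitals. They are the RefSeq promoters of rat build GRCr8, from 15 bases before to 10 bases after the annotated gene start, 5′ to 3′ on the gene's strand. Rpl13a, Rpl35, Rpl31, Rpl22 and Rpl23 hold the motif and were lower, and Rpl11 and Rps3a do not hold it there and were lower too.
Rpl13a: cctcttcCTTTCctaggcggctgcc
Rpl35: cgccccttcctCTTTCtctcgaacc
Rpl31: ccacaatccctcgcgcCTTTCcttt
Rpl22: gtagtgcgcccccctccCTTTCtgc
Rpl23: actaacttcCTTTCtgactCTTTCc
Rpl11: ggggacttgaagcttgtttggtgct
Rps3a: gagttgtacttccgcccttttggct
The windows are chr1:104748904-104748928 (minus strand) for Rpl13a, chr3:43165912-43165936 (minus) for Rpl35, chr9:49143096-49143120 (plus) for Rpl31, chr5:168117946-168117970 (plus) for Rpl22, chr10:83272175-83272199 (minus) for Rpl23, chr5:153560793-153560817 (minus) for Rpl11 and chr2:173827033-173827057 (minus) for Rps3a.

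Only that motif, CTTTC, was searched, on the gene's strand and as its reverse complement GAAAG, within 15 bases on either side of the start. It stood in 12 of the 28 lower ribosomal protein genes with a promoter in the table (42.9%) and in 13 of the 32 measured ones (40.6%). It stood in 4 of 97 other lower genes (4.12%), in 7 of 381 kept genes (1.84%) and in 1200 of all 33469 promoters (3.59%). The reverse complement stood in 1 of the 28 (3.57%) and in 3.82% of all promoters. The motif was therefore more frequent in the ribosomal class than among other lower genes, as a count of letters in a window with no test.

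Translation factors, which load and move the ribosome, were split. Of 15 measured, 3 were lower (20%, against 4.86% of all genes) and 4 kept, with a median of -0.05. Eef1a1, the factor that brings transfer RNA to the ribosome, read 9546 and 7250 on the loaded and 336 and 250 on the unloaded controls (-4.64 ± 0.23, adjusted p = 2.86e-07). Naca, which binds nascent chains, went from 2176 and 2202 to 101 and 27.6 (-4.43 ± 0.33), and Eef1g, a partner of Eef1a1, from 2907 and 2555 to 301.5 and 299.7 (adjusted p = 6.77e-06). A second probe set of Eef1a1 was not called (-0.49). Eef2, the translocase of the ribosome, was kept on its brightest probe set, at 10913 and 10394 against 10183 and 11092 (-0.00 ± 0.16). Its 3 other probe sets were lower, at -3.41, -1.95 and -1.42, the first of them from 8781 and 7494 to 676 and 771 (rc_AI178750_at, adjusted p = 5.24e-07), so that gene's probe sets disagreed. Transcription and splicing genes had 1 lower (5%, near the 4.86% of all genes), 1 higher and 5 kept of 20, with a median of -0.05. The lower one was H19, a noncoding RNA of growing tissue, at 2561 and 2062 against 249 and 254.

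Transcripts of the mitochondrial genome were lower, and those of nuclear genes for the same respiratory complexes were mixed. COX1, a core subunit of cytochrome oxidase, read 164214 and 166801 on the loaded and 2887 and 2966 on the unloaded controls (-5.80 ± 0.13, adjusted p = 1.9e-09). COX3, another mitochondrially encoded subunit, read 161918 and 169765 against 2747 and 2548 (-5.95 ± 0.14, adjusted p = 1.9e-09). COX2, the third subunit from that genome, read 120643 and 104753 against 8804 and 7568 (-3.78 ± 0.21). These were all 3 mitochondrial genes named by the table, and on the unloaded arrays they still read far above the median. Their summed signal was 446800 and 441300 on the loaded and 14440 and 13080 on the unloaded controls.

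Among 49 nuclear genes for respiration (oxidative phosphorylation and citrate cycle), 7 were lower, 0 higher and 8 kept, with a median of -0.30. The lower share was 14.3%, against 4.86% of all genes. Atp5f1e, a small subunit of ATP synthase, went from 3320 and 3523 to 118 and 132 (-4.34 ± 0.21, adjusted p = 2.46e-07). Cox4i1, a nuclear subunit of cytochrome oxidase, went from 6198 and 7762 to 574 and 409 (-3.72 ± 0.22), and Cox6a1, another, from 2056 and 2363 to 228 and 248 (-2.99 ± 0.24). Other probe sets of Cox6a1 were not called (0.76 and -0.46). Cox8a, a nuclear subunit of the same complex, was kept on its brightest probe set, at 14114 and 12262 against 13551 and 15223 (0.13 ± 0.16), and lower on another, at 7660 and 6070 against 3789 and 3413 (M28255_s_at, -0.91 ± 0.23, adjusted p = 0.0408). ATP synthase was split as well: Atp5f1a and Atp5f1b, the subunits of its catalytic head, were kept at 0.03 and -0.26, and Atp5f1d and Atp5po fell, at -1.98 and -1.94, although a second probe set of Atp5po was kept at 0.01. The carriers Slc25a4 and Slc25a5, which exchange ADP and ATP across the inner membrane, also parted, at -1.61 (lower) and -0.02 (kept).

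**Figure D3:**
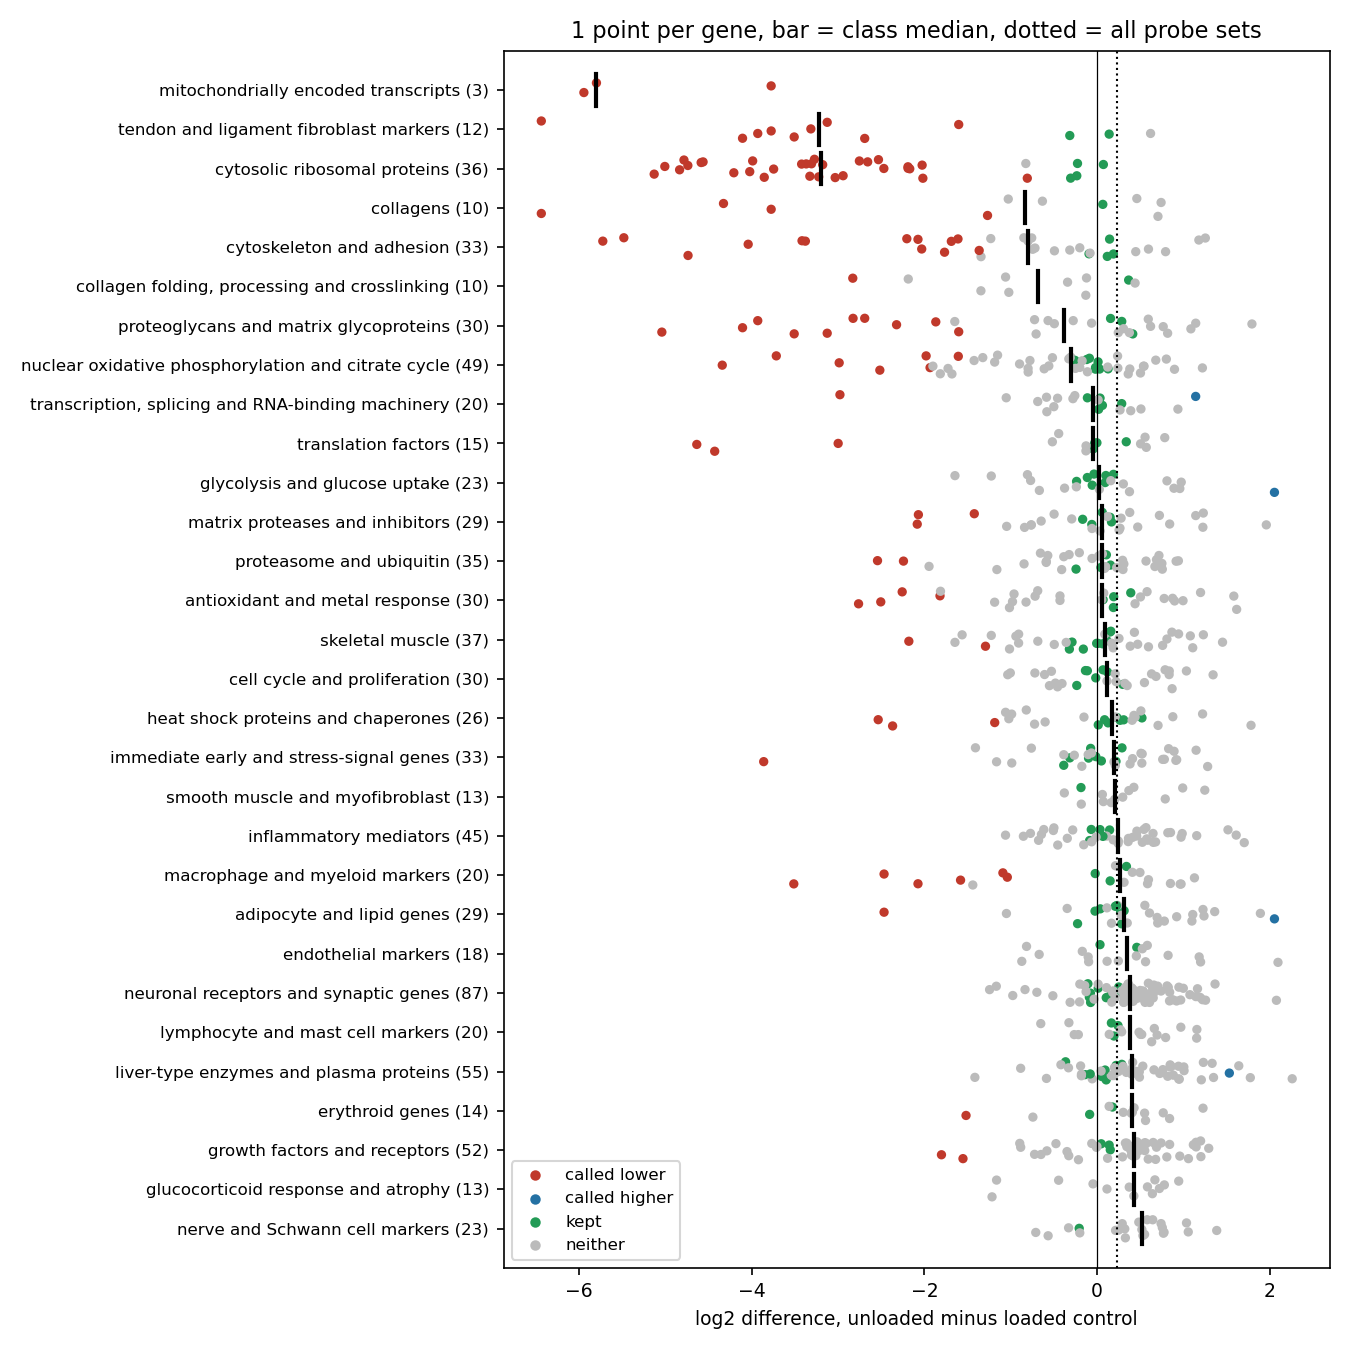
Log2 difference, unloaded minus loaded control, of every measured gene in 30 gene lists, with 1 point per gene at its brightest probe set, the number of genes in brackets, a black bar at the class median and a dotted line at the median of all probe sets (0.23). Medians of -5.80, -3.22 and -3.20 stand at the top for mitochondrial transcripts, fibroblast markers and ribosomal proteins, and 22 of the 30 classes have medians between -0.05 and 0.52 with only scattered red points.

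The cytoskeleton and adhesion list had 13 of 33 genes lower (39.4%, against 4.86% of all genes), 0 higher and 4 kept. Its median was -0.80. Vim, vimentin, the intermediate filament of fibroblasts, read 6735 and 6930 on the loaded and 162 and 35.3 on the unloaded controls (-5.73 ± 0.40, adjusted p = 3.77e-06). S100a10, the annexin A2 ligand, went from 3619 and 3347 to 53.1 and 17.1 (-5.48 ± 0.28, adjusted p = 3.28e-07). Lgals1, galectin-1, a lectin of connective tissue, went from 6104 and 4541 to 131 and 178 (-4.74 ± 0.24), and Actb, cytoplasmic actin, from 8652 and 11113 to 567 and 538 (-4.04 ± 0.24, adjusted p = 8.62e-07). On the unloaded arrays Vim, S100a10 and Lgals1 ended below the array median and Actb above it. Smaller falls were those of the actin-binding peptide Tmsb4x (-3.42), S100a4 (-3.38), Anxa2 (-2.20), Anxa5 (-2.03), the tubulin Tuba1b (-1.77) and profilin, Pfn1 (-1.37). Of the 13 members in the brightest bin 11 were lower. The tubulin Tubb5 was kept there, at 2181 and 2119 against 2036 and 1987. Gnas, the stimulatory G protein subunit, which was on no list, was among the 10 deepest falls of genes with 1 symbol, at 7128 and 5820 against 59.9 and 180.5 (-5.39 ± 0.33, adjusted p = 1.38e-06).

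Muscle genes, which can enter a ligament sample with adherent muscle and vessel walls, were largely unresolved or kept. Of 37 skeletal muscle genes 2 were lower (5.4%), 0 higher and 9 kept (24.3%), with a median of 0.09. The lower share is near the 4.86% of all genes, of which 14.9% were kept. Myh4, a fast myosin heavy chain, read 3444 and 2492 against 668 and 557 (-2.18 ± 0.26, adjusted p = 0.000247), and Acta1, skeletal actin, 1164 and 1026 against 401 and 438 (-1.29 ± 0.25, adjusted p = 0.00802). Kept members included Tpm1, a tropomyosin of many cell types (12161 and 10096 against 8396 and 9748, -0.29 ± 0.18), Myh3, the embryonic myosin (0.11), Ckm, muscle creatine kinase (-0.32), and Tnnt3, a fast troponin (0.16). Of 13 smooth muscle genes 0 were called either way by limma and 1 was kept, Myl6, at -0.19, with a list median of 0.20. Acta2, smooth muscle actin, read 800 and 899 against 612 and 672 (-0.38 ± 0.30, adjusted p = 0.564). The summed signal of the skeletal muscle list was 48260 and 46540 on the loaded and 43120 and 45970 on the unloaded controls.

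Macrophage and myeloid markers had 6 of 20 genes lower (30%, against 4.86% of all genes), 0 higher and 3 kept, yet a median of 0.26. The lower ones were the 5 members in the brightest bin and 1 more. Cd74, the invariant chain of class II antigen presentation, went from 971 and 732 to 27.9 and 36.5 (-3.51 ± 0.40, adjusted p = 0.000193). Apoe, a lipid carrier of macrophages and other cells, went from 6287 and 5667 to 783 and 1380 (-2.47 ± 0.24), Lgals3, galectin-3, from 1152 and 1262 to 315 and 199 (-2.08 ± 0.28), and Lyz2, lysozyme, from 2144 and 1392 to 578 and 517 (-1.58 ± 0.24, adjusted p = 0.00176). Psap and RT1-Da fell too, at -1.09 and -1.04. The class II genes RT1-Ba (0.34) and RT1-DMa (-0.02) and the lysosomal protease Ctss (0.15) were kept, and Cd14 read 1119 and 1742 against 1872 and 1864 (0.41 ± 0.30). Markers of the same cells thus lay on both sides. The 5 that were brightest on the healing arrays were lower. On the loaded controls, however, the kept RT1-Ba read 1595 and 1722, above the lower Lgals3 and Cd74.

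Lists for other cell types of the ligament are read against the 157 of 3228 genes (4.86%) that were lower in all. Lymphocyte and mast cell markers had 0 of 20 called by limma and 3 kept (Cd3g, the mast cell protease Cma1 and the granzyme Gzmb), with a median of 0.38. Endothelial markers had 0 of 18 called and 2 kept, Selp at 0.03 and Thbd at 0.46, with a median of 0.35. Nerve and Schwann cell markers had 0 of 23 called and 1 kept, Ngfr, with a median of 0.52. Erythroid genes had 1 of 14 lower, the globin Hbb, at 850 and 586 against 242 and 194 (-1.52 ± 0.31, adjusted p = 0.0118), and 2 kept. Adipocyte and lipid genes had 1 of 29 lower (Apoe), 1 higher (Slc2a4) and 8 kept, with Lep, leptin, kept at 11691 and 8952 against 12512 and 12204 (0.27 ± 0.23). Other, far dimmer Lep probe sets read 216 and 315 against 352 and 409, and 519 and 447 against 165 and 831. They were neither called nor kept. Summed endothelial signal was 10720 and 15560 on the loaded and 17640 and 18180 on the unloaded controls, and that of lymphocyte and mast cell markers was 11920 and 12630 against 15750 and 16570.

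Of 29 matrix proteases and inhibitors 3 were lower (10.3%, against 4.86% of all genes), 0 higher and 5 kept, with a median of 0.06. The lower ones were the lysosomal protease Ctsb (766 and 599 against 171 and 88.3, -2.08 ± 0.43, adjusted p = 0.0133), its inhibitor Cst3 (2211 and 2535 against 310.5 and 880, -2.07 ± 0.38) and the metalloproteinase inhibitor Timp2 (2189 and 2049 against 503 and 1141, -1.42 ± 0.33). Timp1, a related inhibitor, was kept at -0.17, and so was the stromelysin Mmp3 at 0.06. The inhibitor A2m read 2878 and 2509 against 3017 and 2192 and was kept at -0.06.

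Most bright members of the glycolysis list were kept. Of 23 genes 0 were lower, 1 was higher and 7 (30.4%) were kept, with a median of 0.02. Among all genes 4.86% were lower and 14.9% kept. In the brightest bin 4 of the 5 were kept, against 43.9% of its probe sets with 1 symbol. Pgam1, phosphoglycerate mutase, read 9092 and 7396 on the loaded and 8524 and 7282 on the unloaded controls (-0.06 ± 0.19). Eno1, enolase, read 3409 and 3651 against 2588 and 3438 (-0.24 ± 0.22). Pgk1, phosphoglycerate kinase, was kept on the probe set listed (-0.11) and lower on another (622 and 536 against 44.4 and 26.0, -2.95 ± 0.42, adjusted p = 0.00096). Hk2, hexokinase 2, was kept at -0.04.

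Protein turnover and stress genes had 5.71% (proteasome and ubiquitin), 11.5% (chaperones) and 13.3% (antioxidant) of their members lower, against 4.86% of all genes. The proteasome and ubiquitin list had 2 of 35 lower, Psmb1 (-2.54 ± 0.41, adjusted p = 0.00261) and the calpain subunit Capns1 (5469 and 4118 against 1066 and 875, -2.24 ± 0.25), and 4 kept, with a median of 0.06. Heat shock proteins and chaperones had 3 of 26 lower and 7 kept. Hspa5, a chaperone of the endoplasmic reticulum, fell (-2.54), as did the mitochondrial pair Hspe1 (-2.37) and Hspd1 (-1.19), whereas Hspb1, a small heat shock protein, was kept at 8141 and 7115 against 9454 and 9396 (0.31 ± 0.19). A second probe set of Hspa5 (0.63), of Hspe1 (-1.39) and of Hspd1 (0.67) was not called. Antioxidant genes had 4 of 30 lower and 4 kept. Gpx3, the secreted glutathione peroxidase, went from 8690 and 8128 to 2400.2 and 2294 (-1.82 ± 0.18, adjusted p = 4.94e-05), and Gpx4 (-2.26), the selenium carrier Selenop (-2.76) and the metallothionein Mt3 (-2.51) fell too. A second, dimmer probe set of Selenop was not called (0.61). Sod1, cytosolic superoxide dismutase, was kept at 7611 and 8291 against 8238 and 8433 (0.07 ± 0.19).

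Signalling lists held 0 to 2 lower genes each, to be read against 4.86% lower and 14.9% kept among all genes. Immediate early and stress-signal genes had 1 of 33 lower, Nupr1, a stress-induced nuclear protein (2079 and 2672 against 89.9 and 155, -3.86 ± 0.31, adjusted p = 1.24e-05), and 8 kept, including Fos at 3664 and 3541 against 2932 and 2567. Growth factors and receptors had 2 of 52 lower, Igf1 (1444 and 1708 against 550 and 314, -1.80 ± 0.40, adjusted p = 0.0215) and the binding protein Igfbp6 (2020 and 1997 against 685 and 624, -1.55 ± 0.25). Other probe sets of Igf1 were not called (-0.71 and 0.16). Inflammatory mediators had 0 of 45 called by limma on the brightest probe sets and 5 kept, with a median of 0.25, although Nos2, not called there (-0.28), was called higher on a dimmer probe set. Cell cycle genes had 0 of 30 called and 7 kept, among them the cyclins Ccnd1 and Ccnd3. Glucocorticoid response and atrophy genes had 0 of 13 called and 0 kept, with a median of 0.42. Trim63, the atrophy ubiquitin ligase MuRF1, read 2831 and 2746 against 4848 and 4102 (0.67 ± 0.19), which did not pass (adjusted p = 0.0691). Across the lists, several smaller falls named above lost their call when 1 control array was left out: Acta1, Col5a1, Cst3, Ctsb, Timp2, Gpx4, Hbb, Hspa5, Hspe1, Hspd1 and Igf1. With averaged probe sets, Cox6a1, Lox, Selenop, Hspd1 and Igf1 lost their call.

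The lists of genes best known from other organs had no lower members. Their median level lay in bin 5, where 1.14% of all probe sets were lower, so 0 is near the share at that level. Of 87 neuronal receptor and synaptic genes, 0 were called by limma and 10 (11.5%) were kept, against 14.9% of all genes. The 4 in the brightest bin were all kept. Among them Drd3, a dopamine receptor, read 7924 and 4599 on the loaded and 5493 and 5714 on the unloaded controls (-0.11 ± 0.24). Pdyn, an opioid precursor, read 11275 and 5988 against 7394 and 8194 (-0.08 ± 0.26). Another, far dimmer Pdyn probe set read 354 and 259 against 223 and 198 and was neither called nor kept. Of 55 liver-type enzymes and plasma proteins 0 were lower, 1 was higher and 9 (16.4%) were kept, with 2 of the 3 in the brightest bin kept. Fabp6, an intestinal bile acid binding protein, read 35180 and 34924 against 37570 and 39856 (0.14 ± 0.16). Crp, the acute phase protein of liver, was kept on both its bright _f_at probe sets, at 27243 and 24997 against 29476 and 28004 on the brighter one. Another, far dimmer Crp probe set read 393 and 361 against 413 and 323.5 and was neither called nor kept. Other bright kept genes were Ddr1, a collagen receptor (18988 and 14617 against 15158 and 14027), Prrc2c and the membrane scaffold Flot1. A far dimmer probe set of Flot1 was neither called nor kept (0.89). A difference within 1 log2 unit follows from the definition of kept and is no further result. Whether these probe sets read the transcript they are named for was not tested.

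The probe sets called higher were few, and most lost their call when 1 array was left out. Bins 9 and 10 held 6 of the 31 each. Their median signal was 517 on the loaded and 1655 on the unloaded controls, 12 of 31 passed 4-fold, and 15 carried 1 gene symbol. Without either unloaded control array the count fell from 31 to 8, with quantile normalization it was 207, and 4 of the 31 were called whichever array was left out. Slc2a4, the insulin-responsive glucose transporter, read 185 and 213 on the loaded and 989 and 947 on the unloaded controls (2.05 ± 0.40, adjusted p = 0.00865). Nos2, inducible nitric oxide synthase, read 274 and 350 against 1368 and 1432 (2.02 ± 0.37, adjusted p = 0.00629). In both the unloaded arrays were close together and clear of the loaded ones, yet neither passed when 1 of the unloaded arrays was left out. The gap between the groups is favoured by a call made on these same arrays, so it adds no support. A second probe set of each did not pass, at 0.66 for Slc2a4 and, for Nos2, 0.48 and -0.28 on a pair of others.

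The brightest rises were of probe sets without a gene symbol. On rc_AI014135_g_at the loaded controls read 5266 and 6843 and the unloaded controls 21255 and 20058 (1.77 ± 0.16, adjusted p = 3.4e-05, 3.42-fold). Its healing arrays went the other way, at 31706 and 29868 in loaded and 5300 and 5304 in unloaded healing (-2.53, limma adjusted p = 0.000174). In healing ligaments X62951mRNA_s_at and X62950mRNA_f_at differed by 0.51 and 0.96. X62951mRNA_s_at went from 2831 and 2856 to 6916 and 6547 (1.23 ± 0.19, adjusted p = 0.00168), and X62950mRNA_f_at from 3496 and 4355 to 9068 and 8349 (1.15 ± 0.18). On all of these the arrays of a control group lay close together and the control groups did not overlap. A call made on these same arrays favours both, so this adds no support. They were chosen after their values were seen.

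Among genes with 1 symbol several other rises were less even between arrays. Homer1, a synaptic scaffold, read 72.6 and 434 against 1428 and 1229 (2.52 ± 0.65, adjusted p = 0.0474), and its 4 other probe sets lay between -0.17 and 0.35. Kng2, a kininogen, read 146 and 396 against 880 and 2384 (2.37 ± 0.61, adjusted p = 0.0471). Bdnf, a neurotrophin, read 127.6 and 159 against 954 and 908 (2.37 ± 0.57, adjusted p = 0.0338), with its other probe sets at 0.42, 0.76, -1.14 and 0.84. Bpifb4 (2.47), Kti12 (2.04), Scd2, a fatty acid desaturase (2.01), the nuclear pore gene Nup62 (1.65) and the cytochrome Cyp2c23 (1.53 ± 0.31, adjusted p = 0.0119) completed the 10 largest among genes with 1 symbol. Each of these 10 rises lost its call without unloaded control 1, without unloaded control 2 or without either. A probe set that the table assigns to ribosomal RNA, Rn28s and Rn45s, was also higher, at 134 and 127 against 1171 and 525 (rc_AA893870_at, 2.24 ± 0.54, adjusted p = 0.0338).

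**Figure D4:**
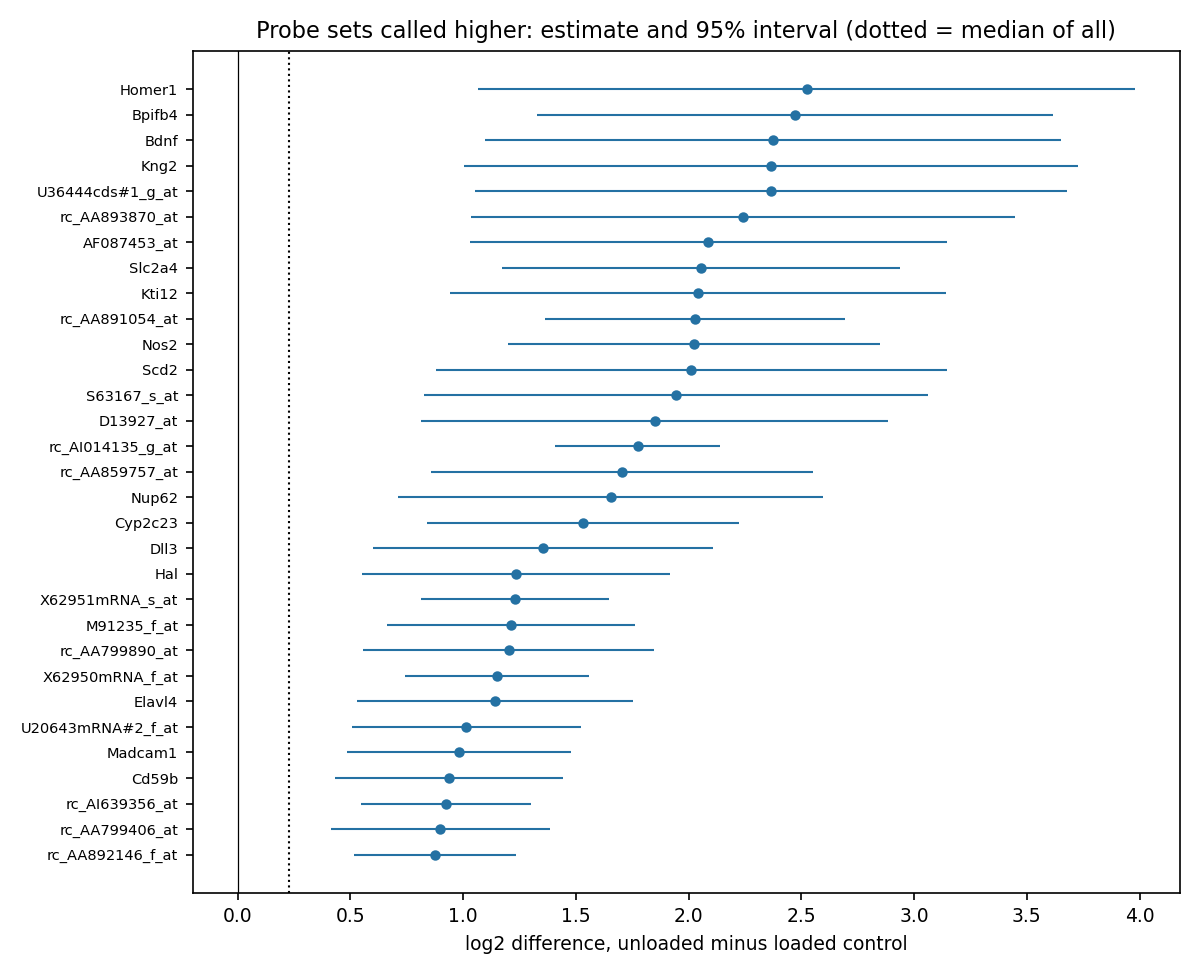
Log2 difference with its 95% confidence interval for the 31 probe sets called higher in unloaded controls, by gene symbol or, where the table gives none or several, by probe set; the dotted line is the median of all probe sets (0.23). Estimates run from 0.87 to 2.52 and most intervals are wide, with several lower ends near 1.

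Genes with several probe sets allowed the level to be compared within a gene. Of 741 such genes, 59 had their brightest probe set called lower. Their 77 other probe sets had a median difference of -1.02 against -2.76 for the brightest ones. Of the 77, 62 were negative, 30 were called lower and 6 were kept, and in 50 of the 59 genes the dimmest probe set fell less than the brightest. Of the 23 others that were also in the brightest bin, 22 were lower. In 19 genes every probe set was lower, and in 15 genes another probe set was lower while the brightest was not. The 59 genes were chosen on the fall of their brightest probe set, which favours a larger value there.

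The unloading contrast in injured ligaments did not show these falls. Among the 326 probe sets lower in unloaded controls, the median effect of unloading in healing ligaments was -0.08. Of them 27 were also lower and 31 were higher with unloading there. The difference of the unloading effect between healing and control was tested itself, and 254 probe sets (4.84%) passed, 237 with a more positive effect in healing ligaments and 17 with a more negative one. Of the 326, 220 were among the 237, a count that is not independent since the difference contains the control contrast, and in 302 all 4 healing arrays read above both unloaded controls. Col1a1, for example, read 84666 and 73916 in loaded healing and 50510 and 34753 in unloaded healing, far above the 699 and 763 of the unloaded controls. COX1 read 172687, 164263, 179281 and 181707 on the healing arrays. The healing groups differ from the controls in injury, and unloading there began after surgery, so the contrasts are not of the same animals or timing. Only the control contrast also compares no surgery with sham surgery, so its difference from the healing contrast is not one of unloading alone. The 2 contrasts share no array.

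Array control probe sets, which were left out of the test, moved in several ways between the control groups. Beta-actin 3′ read 4393 and 4955 on the loaded and 1284 and 1494 on the unloaded controls, GAPDH 3′ read 2278 and 2335 against 1886 and 2283, and the ratio of 5′ to 3′ actin signal was 0.964 and 0.634 in unloaded controls against 0.237 to 0.529 elsewhere. Loaded healing arrays also had low beta-actin 3′, at 1353 and 1597. The geometric mean of 6 spike-in probe sets (BioC, BioDn and CreX), RNAs added at fixed amounts before hybridisation, was 32380 and 27200 on the unloaded controls, within the 23980 to 39890 of the other arrays. The BioB M spike-in, which marks the lower end of the added amounts, read 7548 and 5443 on the unloaded against 17173 and 20544 on the loaded controls, and on the healing arrays it ranged from 761 to 27208, both in the unloaded healing group. The 5S ribosomal RNA probe set read 487 and 431 on the loaded and 1155 and 1796 on the unloaded controls, the rat b2 repeat probe set read 551 and 641 against 1410 and 1481, and the rat b1 one 1841 and 1574 against 2926 and 2366. GAPDH probe sets of the opposite strand, named _st, were higher as well, at 408 and 479 against 623 and 881 for the 3′ one. Their part in the falls of the bright transcripts was not tested.

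**Figure D5:**
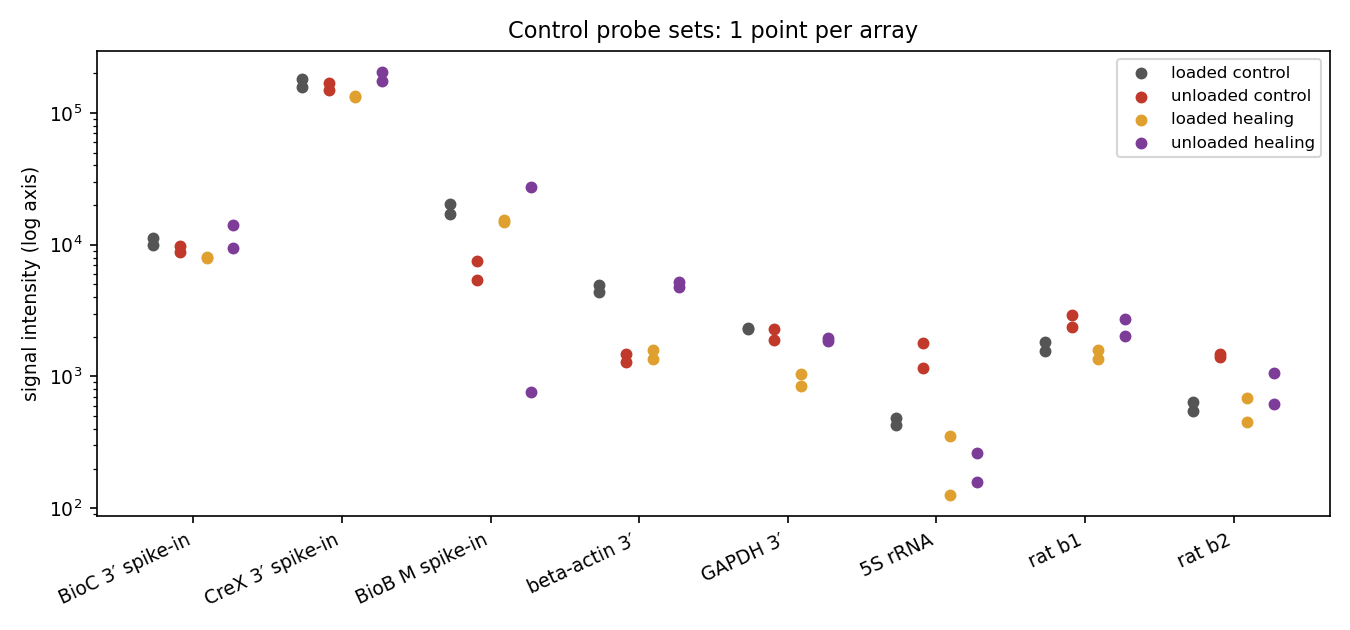
Signal (log axis) of 8 array control probe sets with 1 point per array, coloured by group. The BioC and CreX spike-ins lie at like levels in all groups, while in the unloaded controls (red) beta-actin reads 1284 and 1494, near the 1353 and 1597 of loaded healing, and 5S ribosomal RNA (1155 and 1796) and rat b2 (1410 and 1481) lie above the points of every other group.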

How the data were processed

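The authors deposited 1 table of linear signal intensity for 8799 probe sets on 8 one-colour rat arrays, 2 per group; the summary software is not given in the sources used here. The deposited intensity values had been scaled, since the trimmed mean of each array was 500.3 to 500.6. All columns were used. Groups came from the sample titles and descriptions. The 59 control probe sets were set aside, log2(signal + 45.8) was taken (the offset is the 10th percentile), the dimmest 40% were removed, and limma 3.58.1 in R 4.3.3 fitted 4 group means with an intensity trend (4 residual and 5.81 prior degrees of freedom, two-sided tests, Benjamini-Hochberg over 5244 probe sets). The model was tested on simulated data.

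Of all probe sets, 7018 carried 1 gene symbol, 308 several and 1473 none in the probe table, and 6994 matched RefSeq (GRCr8). A gene in a list is represented by its brightest probe set. Named genes are the 10 largest falls and rises, up to 4 called and 2 kept members per list, the 10 brightest kept, and their other probe sets; further genes and the unnamed probe sets were chosen after their values were seen. The members, the 30 lists and the tests were chosen with earlier results of these data known. Alternatives were other scalings, offsets, filters, variance priors, sample sets, a replicate block, averaged probe sets and leaving out each array. The number of arrays limits the precision.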

Additional observations from a re-analysis of the deposited data

Results flagged for a closer look

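The unloading contrast differed between healing and control ligaments at 254 probe sets, by the interaction test of the difference itself (limma, adjusted p under 0.05). Of the 20 genes with the largest changes, 12 were among them. Only the control contrast also compares no surgery with sham surgery, so the interaction is not one of unloading alone. The interaction, in log2 units of the healing minus the control effect, was 5.52 for Col1a1, 5.90 for Rpl26, 6.18 for COX3, 5.90 for COX1, 4.05 for Vim, 5.29 for S100a10, 5.45 for Gnas, 5.56 for Rpl3, 5.85 for Rpsa and 5.19 for Rpl11. It was -4.48 for Homer1 and -1.98 for Cyp2c23. All 10 named falls were absent or smaller in injured ligaments, and all 10 passed the interaction test. The 10 named rises were also smaller or opposite there by estimate, but only 2 of them, Homer1 and Cyp2c23, passed that test. The 20 genes were chosen on the control contrast, which the interaction contains with its sign reversed. That choice favours a large interaction, so the 12 of 20 is not an independent count.

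Signal in 2 array control probe sets outside the tested table was higher in unloaded than in loaded controls. The 5S ribosomal RNA probe set differed by 1.65 log2 units and the rat b2 probe set by 1.28, with both unloaded arrays above the other 6 in each case.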

How the results depend on the processing

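Among 65 named genes that were called, none reversed in the settings run, 39 kept their call in all of them, and 156 of 1357 values lost it. Of the 326 lower probe sets, 229 were called whichever array was left out and 233 under every other setting fitted per probe set; of 695 kept ones, 156 and 88. Of the class values 1082 moved by less than their spread and 172 by more. Leaving out 1 array gave 243 to 324 lower and 8 to 39 higher probe sets, with 8 higher without either unloaded control. The count of higher probe sets was 207 with quantile normalization, 7 with median centring and 47 with a replicate block, which gave 346 lower. The replicate numbers did not pair the control arrays (correlation of deviations 0.001). The median difference of the brightest bin was -0.13 with quantile normalization, -0.65 with median centring, -0.10 without a filter, -1.09 with a 60% filter, -0.71 with averaged probe sets and -0.12 with level taken from all 8 arrays, and -0.53 to -0.36 with 1 array left out. The kept probe sets of that bin numbered 76 with quantile normalization, 362 without a filter, 123 with a 60% filter, 111 without the intensity trend and 135 with averaged probe sets, and 139 to 218 with 1 array left out. The filters and averaging change how many probe sets the bin holds; otherwise the cause was not tested. The ribosomal median was -2.95 with quantile normalization, -3.45 with median centring and -2.83 with an offset 4 times as large. The main limits are 2 arrays per group, no measure of total RNA per ligament, and dim probe sets whose differences stay unresolved.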

Other observations

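Some probe sets followed the replicate number in 3 groups and not in the unloaded controls. Kdr, an endothelial receptor, read 131 and 3104 on loaded control 1 and 2, 257 and 3450 on loaded healing 1 and 2, and 245 and 3546 on unloaded healing 1 and 2, but 2647 and 3724 on the unloaded controls. Over all probe sets, the correlation of the deviations of replicate 1 from its group mean was 0.204 between loaded control and loaded healing, 0.184 between loaded control and unloaded healing and 0.159 between the healing groups. With the unloaded controls it was 0.001, 0.013 and 0.014. The labels name no batch, and Kdr was chosen after its values were seen.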
